A study of Mus musculus with 2 samples.

Results

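The ephrins, Eph receptors, semaphorins, plexins and neuropilins are 53 genes on the array whose mouse symbols, taken from the RefSeq accessions of the probes, match these families, out of 20281 named genes with a probe. They were measured in 1 *Dullard+/-* and 1 *Dullard-/-* whole embryo at E7.5. Both embryos are of strain C57BL/6, each on 1 one-colour Agilent array, with Cy3 as the dye. *Dullard* (*Ctdnep1*) encodes a phosphatase of the nuclear envelope and the endoplasmic reticulum. No wild-type embryo is among the samples, so the *Dullard+/-* embryo, called heterozygous below, is the reference for the *Dullard-/-* (homozygous) embryo, although it lacks 1 copy of the gene itself. The study's name *Dullard-/-* covers a null and a *LacZ* allele, and no source used here says which of them the homozygous embryo carried.

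Ephrins are ligands held on the cell surface, the A class by a lipid anchor and the B class by a transmembrane segment, and they bind Eph receptor tyrosine kinases on neighbouring cells. Both sides can signal, and the contact usually makes cells separate or stay apart. Semaphorins are secreted, transmembrane or lipid-anchored ligands of plexins, which act on small GTPases and the cytoskeleton, and secreted class 3 semaphorins mostly need a neuropilin as the binding partner beside a plexin. These families are best known from the guidance of axons. In the early embryo they also act in tissue boundaries, cell movement and vessel formation.

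The 53 genes comprise 28 ligands (8 ephrins and 20 semaphorins) and 25 receptors (14 Eph receptors, 9 plexins and 2 neuropilins), and they are covered by 68 probes with 1 spot each. Of the genes, 45 were well above background on both arrays, namely 25 ligands and 20 receptors. *Sema3c* and *Plxnb3* were well above background only in the heterozygous embryo. *Epha3*, *Epha8*, *Epha10*, *Plxnc1*, *Sema3d* and *Sema4f* were not well above background on either array. No member spot was saturated or carried an outlier mark.

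Most guidance genes differed little between the embryos, and 2 bright members stood out in opposite directions. *Epha2*, a receptor of A-class ephrins that is known from the node and the primitive streak of the mouse gastrula, was 2.10-fold higher in the homozygous embryo. *Sema4b*, a transmembrane semaphorin, was 1.84-fold lower. Of the 45 measured members, 5 were at least 1.5-fold higher (*Epha2*, *Plxna4*, *Sema7a*, *Sema3f* and *Plxna3*) and only *Sema4b* passed 1.5-fold in the lower direction. Among all 14770 genes measured in both embryos, 3.92% passed 1.5-fold in the higher and 3.37% in the lower direction, 7.29% in all. *Epha2* and *Plxna4* were also past 2-fold, which 0.894% of all genes were in the higher direction and 0.765% in the lower, 1.66% in all. The other 39 members lay within 1.5-fold, and 29 lay within 1.2-fold.

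These values are log2 ratios (*Dullard-/-* over *Dullard+/-*) of the background-subtracted spot signal, each signal first divided by the 75th percentile of its own array. That percentile was 286 in the heterozygous embryo and 264 in the other. Log2 ratios were averaged where a gene had several probes well above background in both embryos. Each genotype is a single embryo, so there is no replicate check and no p-value, the differences describe these 2 embryos, and precision is limited by the number of arrays. The error after ± is a spot error, the SD of repeated spots on the replicated probes nearest in signal, combined over the probes averaged. At the bright and dim ends the same set of these probes serves a wide span of signals, so their signal need not be similar. It was 0.04 both for *Cer1*, with 5493 in the heterozygous embryo, and for *Sema4c*, with 200694. Neither the spread between embryos nor that between probes is in this error. Probes of the same gene had a pooled SD of 0.35 over the 11 members with more than 1 probe measured, and of 0.29 over 3747 genes in all. In RNA of whole embryos, fewer cells of a type and less RNA per cell cannot be told apart. Signals of different probes are not compared as levels, since each probe has its own response.

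The labelled tissue was checked against marker lists. All 7 epiblast, 8 streak and nascent mesoderm and 7 visceral endoderm markers and 6 of 7 trophoblast markers were well above background on both arrays. So were 5 of 7 decidua markers, with sums of 424 in the heterozygous and 384 in the homozygous embryo and 0 past 1.5-fold. *Cryab* alone gave 342 and 309 of these sums. *Prl8a2* and *Prl3c1*, of the same list, were not well above background on either array. Whether decidual tissue was present was not tested. The *Dullard* probe gave 672 in the heterozygous and 144 in the homozygous embryo, lower there but still well above background. By in situ hybridization and Q-PCR the paper found no *Dullard* mRNA in homozygous embryos of this stage. Its null allele lacks all 8 exons, and its *LacZ* allele lacks only some of them. Where this probe lies relative to the altered part of the gene was not checked, and the source of the signal of 144 was not tested. Several marker lists differed between the embryos. The sums below are of unscaled signals, so the brightest probe of a list weighs most. Of the 7 epiblast markers, *Fgf5* (1.86-fold) and *Otx2* (1.77-fold) were at least 1.5-fold higher and 0 lower. *Nanog*, of the same list, gave 152874 in the heterozygous and 150048 in the homozygous embryo. What so bright a probe hybridises to was not tested. The 8 anterior visceral endoderm and mesendoderm markers had a summed signal of 7351 in the heterozygous and 11638 in the homozygous embryo. *Cer1* alone gave 5493 and 8523 of these sums, and 7 of the 8 markers were at least 1.5-fold higher. The 8 streak and nascent mesoderm markers summed to 2775 and 3743 but went both ways, with 3 at least 1.5-fold higher (*Mixl1*, *Fgf8* and *Eomes*) and 2 at least 1.5-fold lower (*T*, 2.28-fold, and *Msgn1*, 3.69-fold). Of 7 neural ectoderm markers, 6 were measured and 2 were at least 1.5-fold higher (*Otx2*, also in the epiblast list, and *Hesx1*, also in the anterior list). The sums were 3390 and 4966, of which *Otx2* alone gave 2277 and 3721. For 8 endothelial markers, 7 of them measured, the sums were 1619 and 2005. These too went both ways, with *Kdr*, *Cdh5* and *Etv2* at least 1.5-fold higher and *Tek* at least 1.5-fold lower. Of 7 markers listed for maternal blood, 3 were measured on both arrays (*Hba-a1*, *Hba-a2* and *Alas2*), all 3 at least 1.5-fold lower in the homozygous embryo. *S100a8* and *S100a9*, of the same list, were not well above background on either array. Whether the RNA of red blood cells was maternal or embryonic cannot be told from these values. *Hbb-bt* and *Hbb-bs*, the adult beta globins, were well above background only in the heterozygous embryo, and the list summed to 621 and 243. The 6 primitive blood markers, 2 of them measured on both arrays, summed to 529 and 188. *Xist*, the RNA of the inactive X chromosome, gave 344 and 634 on its 2 probes in the heterozygous embryo and 1.67 and 4.55, not well above background, in the homozygous embryo. The part of these differences in the values below was not tested. With 1 embryo per genotype, the *Xist* difference, and any difference in sex, cannot be told apart from the genotype in any of these values.

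**Figure D1:**
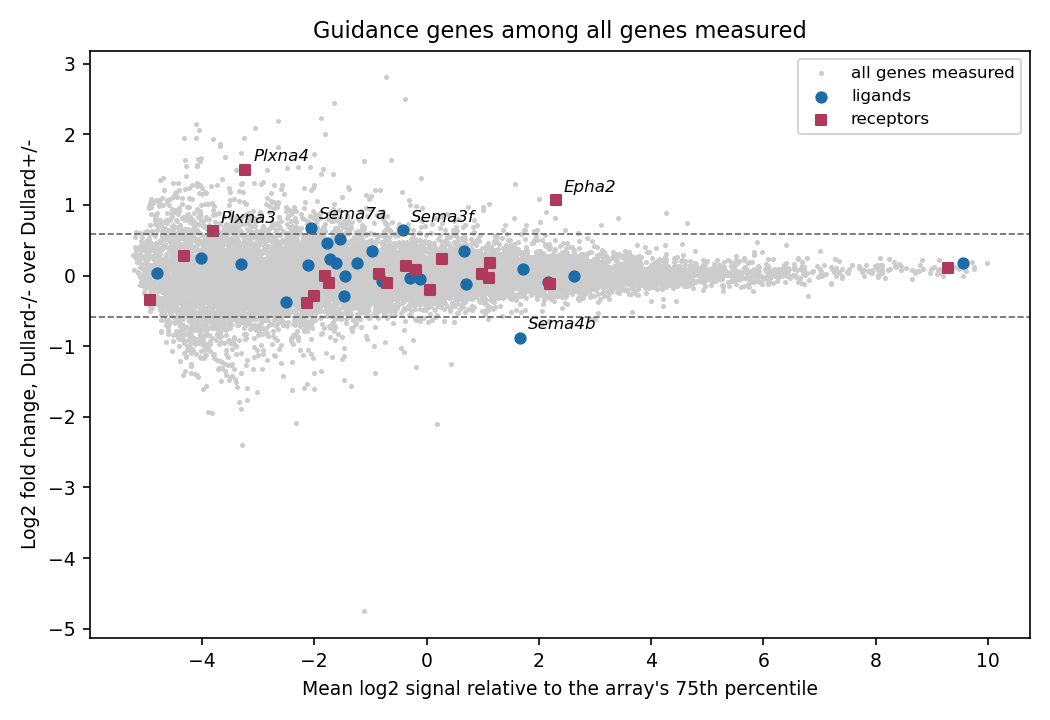
Every gene measured in both embryos, with its mean log2 signal over the 75th percentile of the array on the horizontal axis and its log2 fold change, *Dullard-/-* over *Dullard+/-*, on the vertical axis, 1 embryo per genotype. Grey points are all 14770 genes, circles the 25 measured ligands, squares the 20 measured receptors, and dashed lines mark 1.5-fold. *Epha2* at 1.07 and *Sema4b* at -0.88 lie outside the band of genes of their brightness.

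*Epha2* (NM_010139) gave a signal of 971 in the heterozygous embryo and 1883 in the homozygous embryo on its single probe. The homozygous embryo thus gave the higher signal, and the log2 fold change was 1.07 ± 0.05. Among the 1899 genes with at least its mean signal, 7 were at least 1.5-fold higher, and *Epha2* was the only 1 at least 2-fold higher. None of these genes had a larger log2 fold change. *Epha2* was at 0.96 without scaling between the arrays and at 0.96 with normexp background correction, which puts it just inside 2-fold under both.

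*Sema4b* (NM_013659) gave 1222 in the heterozygous embryo and 614 in the homozygous embryo on its single probe. The log2 fold change was -0.88 ± 0.05. Of the 2653 genes at least as bright, 5 were at least 1.5-fold lower, 0 were at least 2-fold lower, and 0 had a lower log2 fold change than *Sema4b*. It stayed at least 1.5-fold lower under all 12 alternatives, between -0.99 and -0.82.

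The sequences before the transcription starts of these 2 genes are shown because they are the bright members with the largest differences in either direction. Each line gives the 250 bases before a start, 5′ to 3′ on the strand of the gene, from RefSeq on the GRCm38.p6 assembly, and capitals mark each GC box (GGGCGG on either strand, where overlapping matches run together). *Epha2* has 1 start in the table and *Sema4b* has 2, and which of them the embryos used is not measured by these probes.
*Epha2*, chr4:141300971-141301220, plus strand: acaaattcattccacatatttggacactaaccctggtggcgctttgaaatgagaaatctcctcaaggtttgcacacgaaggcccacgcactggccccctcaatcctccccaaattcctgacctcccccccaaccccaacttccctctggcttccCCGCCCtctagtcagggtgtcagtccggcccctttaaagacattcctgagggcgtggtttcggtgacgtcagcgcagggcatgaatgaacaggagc
*Sema4b* (start 1 of 2), chr7:80186620-80186869, plus strand: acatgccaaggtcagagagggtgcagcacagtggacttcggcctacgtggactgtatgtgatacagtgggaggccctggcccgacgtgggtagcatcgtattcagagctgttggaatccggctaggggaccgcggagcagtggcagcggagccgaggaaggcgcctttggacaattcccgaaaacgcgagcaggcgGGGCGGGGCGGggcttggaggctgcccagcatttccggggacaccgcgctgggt
*Sema4b* (start 2 of 2), chr7:80198338-80198587, plus strand: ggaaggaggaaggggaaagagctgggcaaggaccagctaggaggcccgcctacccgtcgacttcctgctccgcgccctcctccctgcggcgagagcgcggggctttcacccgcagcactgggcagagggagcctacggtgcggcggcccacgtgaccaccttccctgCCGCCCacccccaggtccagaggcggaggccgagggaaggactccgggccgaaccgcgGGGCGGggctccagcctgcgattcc

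The GC box is the element bound by factors of the SP family. It stood 1 time before *Epha2* and 2 times before each *Sema4b* start. Of the 53 members, 47 have a window in the table, and 46 of their 61 windows (75.4%) hold a GC box, against 32.7% of all 32851 windows of the same length and 42.6% of the 21263 windows of protein-coding genes. The letters ATCAAAG, read by TCF/LEF factors, stood in 1 member window (*Nrp2*) and in 3.21% of all windows. AGGTGTG, a core of T-box sites, stood in 3 member windows and in 5.10% of all. The letters TAATCC, which GSC and OTX proteins bind, stood in 0 of the 61 and in 6.25% of all. The E-box CACGTG stood in 3 member windows (*Epha8*, *Sema4b* and *Sema6d*) and in 6.02% of all. Each motif was searched on both strands, and a match is a description and not a binding site.

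**Figure D2:**
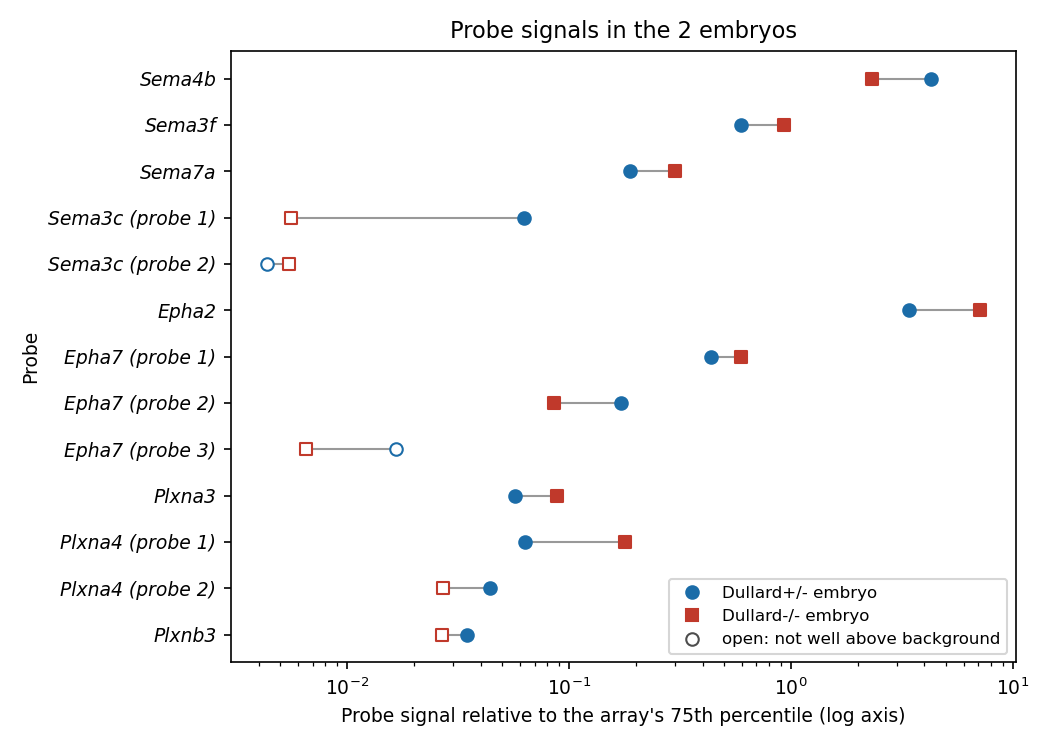
Probe signal divided by the 75th percentile of the array (horizontal log axis) in the heterozygous embryo (circles) and the homozygous embryo (squares), for the 6 members at least 1.5-fold apart, the 2 measured on a single array and *Epha7*. Open symbols were not well above background. The *Plxna4* and *Epha7* probes run in different directions, and *Sema3c* drops out of the measured range in the homozygous embryo.

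Among the ligands, the 8 ephrins were all measured and none was past 1.5-fold. Their median log2 fold change was 0.27, with 6 above 0 and 2 below, and all 8 kept their sign under the 12 alternatives. The alternatives on dim or very bright probes and on averaging cannot change an ephrin with 1 probe. With the brightest probe *Efnb2* was at -0.001, so its sign was kept only barely. In the A class, *Efna3* was at 0.52 ± 0.06, *Efna1* at 0.47 ± 0.10, *Efna4* at 0.35 ± 0.08, *Efna5* at 0.18 ± 0.09 and *Efna2* at -0.29 ± 0.09. *Efna1* gave 71.6 in the heterozygous and 91.5 in the homozygous embryo. *Efna3* gave 77.8 and 106 on the dimmer of its probes, and 86.3 and 111 on the brighter, so both probes were higher in the homozygous embryo. *Efna4* gave 130 and 153.

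*Efna1*, *Efna3* and *Efna4* lie next to each other on chromosome 3, with 0 protein-coding genes between neighbours, and all 3 stayed above 0 under the 12 alternatives. Between the lowest and the highest setting they ranged from 0.27 to 0.50, 0.40 to 0.56 and 0.24 to 0.39. The 250 bases before their starts are shown as above, since these 3 neighbours were the A-class ephrins with the highest log2 fold changes.
*Efna1* (start 1 of 2), chr3:89280952-89281201, minus strand: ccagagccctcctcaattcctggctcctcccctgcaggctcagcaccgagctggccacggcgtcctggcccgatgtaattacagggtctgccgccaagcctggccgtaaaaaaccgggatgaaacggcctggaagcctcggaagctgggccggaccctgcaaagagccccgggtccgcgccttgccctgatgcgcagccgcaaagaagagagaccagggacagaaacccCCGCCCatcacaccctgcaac
*Efna1* (start 2 of 2), chr3:89279646-89279895, minus strand: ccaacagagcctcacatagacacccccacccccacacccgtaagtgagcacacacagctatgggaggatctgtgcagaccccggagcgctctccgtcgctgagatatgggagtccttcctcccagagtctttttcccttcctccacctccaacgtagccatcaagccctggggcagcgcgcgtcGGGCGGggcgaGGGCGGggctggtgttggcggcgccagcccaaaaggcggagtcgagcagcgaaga
*Efna3* (start 1 of 2), chr3:89322940-89323189, minus strand: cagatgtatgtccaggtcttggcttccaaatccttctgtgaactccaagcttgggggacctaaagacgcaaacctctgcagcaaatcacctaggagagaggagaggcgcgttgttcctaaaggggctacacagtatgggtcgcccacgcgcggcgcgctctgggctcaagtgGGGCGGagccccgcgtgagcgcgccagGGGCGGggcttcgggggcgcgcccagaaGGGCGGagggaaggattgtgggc
*Efna3* (start 2 of 2), chr3:89321769-89322018, minus strand: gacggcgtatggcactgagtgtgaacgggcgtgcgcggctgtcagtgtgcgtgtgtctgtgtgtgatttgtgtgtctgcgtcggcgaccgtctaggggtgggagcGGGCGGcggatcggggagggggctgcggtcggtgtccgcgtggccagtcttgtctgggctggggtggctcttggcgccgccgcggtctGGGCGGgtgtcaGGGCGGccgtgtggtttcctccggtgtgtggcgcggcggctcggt
*Efna4*, chr3:89338029-89338278, minus strand: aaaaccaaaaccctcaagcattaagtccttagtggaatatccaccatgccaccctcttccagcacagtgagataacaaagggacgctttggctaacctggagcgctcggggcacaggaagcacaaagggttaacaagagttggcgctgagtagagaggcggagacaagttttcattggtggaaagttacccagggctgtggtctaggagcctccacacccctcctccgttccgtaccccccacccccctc

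The *Efna4* window held 0 GC boxes, the *Efna3* windows 3 each, and the *Efna1* windows 1 and 2.

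In the B class, *Efnb1* was at 0.35 ± 0.06, with 403 in the heterozygous and 476 in the homozygous embryo. *Efnb2*, the arterial partner of the venous receptor *Ephb4*, was at -0.12 ± 0.04, and its probes differed. The brighter gave 901 and 833, a log2 fold change of 0.00, and the dimmer 260 and 203, one of -0.25. *Efnb3*, with 88.2 and 92.7, was at 0.18 ± 0.09. It lies on chromosome 11 with 38 protein-coding genes between it and *Dullard*.

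Of the 20 semaphorins, 17 were measured, with a median log2 fold change of 0.03, 9 above 0 and 8 below. *Sema3f* (NM_011349), a secreted ligand that repels cells and axons through *Nrp2*, gave 170 in the heterozygous and 246 in the homozygous embryo. It was 1.57-fold higher (log2 fold change 0.65 ± 0.07). *Sema7a* (NM_011352), the lipid-anchored member, gave 54.0 and 79.9 and was 1.60-fold higher (0.68 ± 0.11). Without scaling between the arrays the 2 genes were at 0.53 and 0.56, and with normexp background correction at 0.48 and 0.48, each time inside 1.5-fold.

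Of the other secreted semaphorins, 4 were measured on both arrays and lay within 1.5-fold. *Sema3b*, with 3 protein-coding genes between it and *Sema3f* on chromosome 9, was at -0.08 ± 0.08. *Sema3g* was at 0.14 ± 0.11, *Sema3a* at 0.26 ± 0.18 and *Sema3e* at 0.03 ± 0.29, the last from signals close to the lowest that were well above background (6.20 and 7.27). *Sema3c* (NM_013657), which takes part in forming the outflow tract of the heart, gave 17.9 in the heterozygous embryo and 1.48, not well above background, in the homozygous embryo on its brighter probe. This is at least 2.28-fold lower, with the dim value raised to the lowest detected signal of its array. Its other probe gave 1.24 and 1.45 and was not well above background in either embryo, so the bound rests on 1 spot per array.

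The transmembrane semaphorins other than *Sema4b* lay between -0.38 and 0.24. *Sema4a* was at 0.24 ± 0.10, *Sema4d* at -0.04 ± 0.07 and *Sema4g* at 0.00 ± 0.09. *Sema5a* was the lowest of the rest, at -0.38 ± 0.13, from 57.3 to 40.8, and *Sema5b* was at 0.16 ± 0.16. *Sema6a* (1326 and 1151, -0.09 ± 0.05), *Sema6b* (270.3 and 241, -0.05 ± 0.07) and *Sema6c* (906 and 897, 0.10 ± 0.05) were within 0.10 of the reference on the log2 scale.

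Among the receptors, 11 of the 14 Eph genes were measured, with a median log2 fold change of -0.03. While *Epha2* was higher, the other 5 measured EphA genes had values below 0, of which those of *Epha1* and *Epha4* kept their sign under all 12 alternatives and those of *Epha5*, *Epha6* and *Epha7* did not. *Epha4*, which acts in segment boundaries, gave 322 and 258 and was at -0.21 ± 0.06. *Epha1* was at -0.11 ± 0.08, *Epha5* at -0.12 ± 0.15 and *Epha6* at -0.35 ± 0.29. The 5 measured EphB genes lay between -0.03 and 0.17. Among them *Ephb2* gave 591 and 617 (0.17 ± 0.06), *Ephb1* gave 245 and 240 (0.08 ± 0.07), *Ephb4* was at -0.03 ± 0.04 and *Ephb6* at 0.02 ± 0.06.

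*Epha7* is the member whose measured probes disagreed most. A probe designed to NM_010141 gave 125 in the heterozygous and 157 in the homozygous embryo, a log2 fold change of 0.44 ± 0.08. A probe designed to NM_001122889 gave 49.0 and 22.6, a log2 fold change of -1.01 ± 0.18. Another probe to that transcript gave 4.77 and 1.73 and was not well above background on either array. The mean over the 2 measured probes was -0.28 ± 0.10, and it was 0.44 with the brightest probe and 0.00 with normexp, so no direction holds for the gene as a whole.

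**Figure D3:**
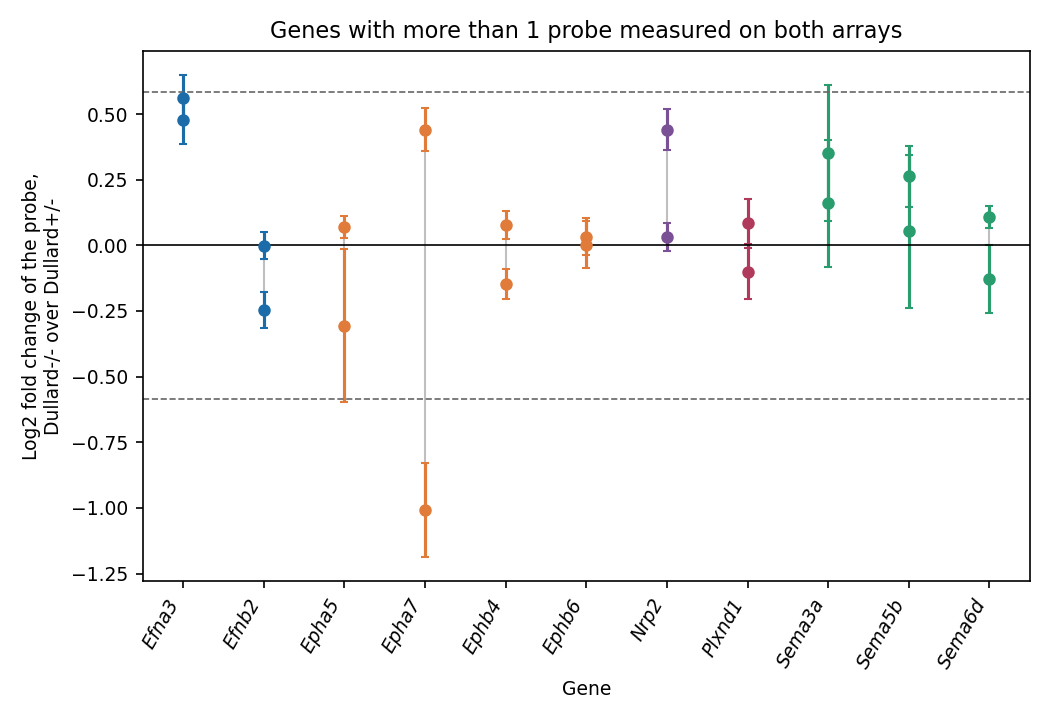
The vertical axis gives the log2 fold change, *Dullard-/-* over *Dullard+/-*, for single probes of the 11 members with more than 1 probe well above background on both arrays, 1 embryo per genotype. Error bars are the spot error (SD of repeated spots on the replicated probes nearest in signal), and dashed lines mark 1.5-fold. The *Epha7* probes lie at 0.44 and -1.01, and the *Nrp2* probes at 0.44 and 0.03.

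Of the 9 plexins, 7 were measured. *Plxna4* (NM_175750) had the highest log2 fold change of all members, 1.5 ± 0.19 (2.83-fold), on a probe that gave 18.2 in the heterozygous and 47.5 in the homozygous embryo. Of the 11974 genes with at least its mean signal, 15 had a larger log2 fold change. Its other probe gave 12.7 and 7.14, the second value not well above background, and ran the opposite way. Without a filter on dim probes the mean over both was 0.39, inside 1.5-fold. *Plxna3* (NM_008883), the main plexin partner of *Nrp2* for *Sema3f*, gave 16.4 and 23.4 and was 1.55-fold higher (0.63 ± 0.24). It was at 0.52 without scaling and at 0.23 with normexp. Its error is large because the probe is dim.

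The other A plexins, *Plxna1* and *Plxna2*, were at -0.11 ± 0.10 and 0.14 ± 0.07, the latter with signals of 212 and 215. In the B class, *Plxnb1*, the receptor of *Sema4d*, gave 74.4 and 52.5 and was at -0.39 ± 0.11, and *Plxnb2*, known from neural tube closure, gave 566 and 529 and was at 0.02 ± 0.05. *Plxnb3* gave 9.89 in the heterozygous and 7.05, not well above background, in the homozygous embryo. The second value lies just under the lowest detected signal of its array (7.27). The bound of 1.26-fold lower rests on 1 dim spot per array, with a spot error of 0.29 on the log2 scale, so no decrease is read from it. *Plxnd1*, the vascular receptor of *Sema3e*, was at -0.01 ± 0.07 over 2 probes. *Plxna3*, *Plxnb3* and *Efnb1* lie on the X chromosome, where the 547 genes measured had a median log2 fold change of -0.02. The part of the *Xist* difference in these 3, or in the other members, was not tested.

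Both neuropilins were measured and lay within 1.5-fold. *Nrp1* gave 13.1 and 14.7 on its single probe, a log2 fold change of 0.28 ± 0.29, which is within its error. *Nrp2* was at 0.24 ± 0.05. Its probes, designed to different transcripts, gave 152 and 191 (NM_001077406, log2 fold change 0.44) and 676 and 639 (NM_001077403, 0.03).

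**Figure D4:**
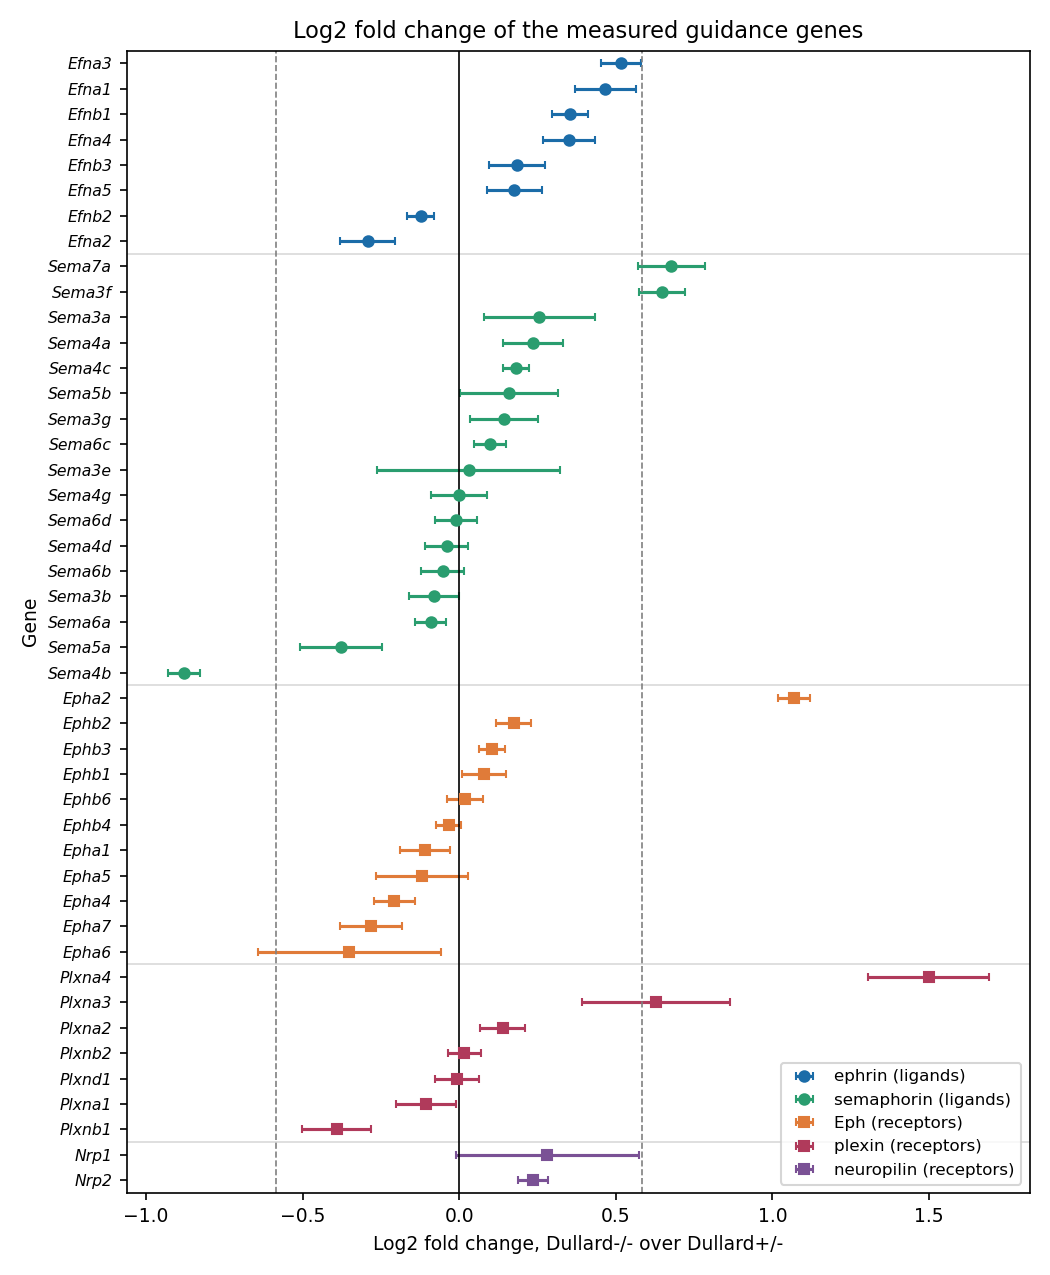
The horizontal axis gives the log2 fold change, *Dullard-/-* over *Dullard+/-*, for the 45 measured members, grouped by family, with ligands as circles and receptors as squares, 1 embryo per genotype. Error bars are the spot error (SD of repeated spots on the replicated probes nearest in signal), and dashed lines mark 1.5-fold. The ephrins have a median of 0.27 and the Eph receptors one of -0.03.

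The ligands as a group were compared with the receptors. The 25 measured ligands had a median log2 fold change of 0.14, with 15 above 0 and 10 below, and 2 of them passed 1.5-fold upward and 1 downward. For the 20 measured receptors the median was 0.02, with 11 above 0 and 9 below, 3 at least 1.5-fold higher and 0 lower. The ligand median minus the receptor median was 0.13, and with normexp it was -0.01. With 1 embryo per genotype this difference was not tested. All 45 members had a median of 0.08, and all 14770 genes one of 0.01. Above 0 lay 57.8% of the members and 52.0% of all genes. Without scaling between the arrays the median of all genes moved from 0.01 to -0.10, and of the genes past 1.5-fold 33.2% were higher, against 53.8% with scaling. The factor shifts every gene by the same amount, and the median of the members was then -0.03.

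Ligands and their known receptors are set side by side here, each with its own log2 fold change. *Sema3f* (0.65), *Plxna3* (0.63) and *Nrp2* (0.24), which form a ligand and receptor complex, were all above 0. However, *Nrp2* averages probes at 0.44 and 0.03, and *Plxna3* rests on 1 dim probe that was at 0.23 with normexp. *Efna1* (0.47) and its preferred receptor *Epha2* (1.07) were also both above 0. Another A-class ephrin, *Efna2* (-0.29), and the other 5 measured EphA genes were below 0. Of those 5, *Epha5*, *Epha6* and *Epha7* did not keep their sign under all alternatives, and no direction holds for *Epha7*. *Sema4d* was at -0.04 and its receptor *Plxnb1* at -0.39. *Efnb2* (-0.12) and *Ephb4* (-0.03) were near the reference, as were *Sema3e* (0.03) and *Plxnd1* (-0.01). For *Sema7a* (0.68), the receptor *Plxnc1* gave 6.54 and 4.20 on one probe and 6.16 and 4.53 on the other and was not well above background on either array. These pairs come from textbook knowledge and are not all known pairs, and the signal of a transcript does not measure binding.

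For 4 member probes the signal was over 50000 on both arrays, as for 210 of 39421 probes of the array in the heterozygous embryo. *Ephb3* gave 172421 in the heterozygous and 171329 in the homozygous embryo (0.10 ± 0.04), and *Sema4c* gave 200694 and 210306 (0.18 ± 0.04), each on a single probe. *Epha5* has a bright probe with 128481 and 124620 (0.07) and a dim one with 14.5 and 10.8 (-0.31). Likewise *Sema6d* has a probe with 57530 and 57273 (0.11) and one with 54.8 and 46.4 (-0.13). What these bright probes hybridise to was not tested, and without them the counts past 1.5-fold stayed at 5 and 1.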

How the data were processed

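RNA of 1 *Dullard+/-* and 1 *Dullard-/-* embryo was hybridised to 1-colour Agilent arrays. The paper and the labels name different kits and RNA inputs for the amplification. The authors deposited spot intensity values from Agilent Feature Extraction 10.10, which are background-subtracted and not scaled between arrays. They also deposited a table of processed intensity values on a linear scale, equal to the former times 4.91 for the *Dullard+/-* and 5.20 for the *Dullard-/-* embryo (medians 189 and 181). No source used here states the target of these constants.

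Each signal was divided by the 75th percentile of its array over 43020 spots that are not controls, and 206 spots marked as outliers by the scanner software were dropped. Accessions named 30235 spots through a RefSeq table of GRCm38.p6. Well above background is the flag of the scanner software. The error pools the 40 replicated probes nearest in signal. For bounds, the dim value was raised to the lowest detected signal of its array. No test was run, and genes were counted at 1.5-fold and 2-fold.

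Named with full values were members past 1.5-fold, measured on 1 array, or with opposed probes, and the 2 brightest of each family. Other members are named with fewer values, chosen after these were seen. The members and lists were chosen with earlier results of these data known. The steps were tested on simulated data. Alternatives were no scaling, scaling to the median, quantile and cyclic loess normalization, normexp (offset 50, on median signals), no filter on dim probes, outlier spots kept, the brightest probe, the mean of linear folds and the processed table, and, chosen after seeing the data, a signal of at least 50 and no probes over 50000. The array normalizations used limma 3.58.1 in R 4.3.3. All other steps used Python 3.11.15 with pandas 2.3.3 and numpy 2.4.6.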

Additional observations from a re-analysis of the deposited data

How the results depend on the processing

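No paired analysis was possible because each genotype has 1 embryo and the labels carry no replicate number. Over all alternatives, the medians moved by less than the median error of the members (0.08) and the counts by less than 1.5 times in 63 cases and by more in 9. Keeping outlier spots could move none of these, since no member spot carries an outlier mark. Without scaling between the arrays, 2 members were at least 1.5-fold higher in place of 5, and the medians were -0.034 over all members, 0.030 over the ligands and -0.10 over the receptors. With normexp, 2 members were at least 1.5-fold higher, the ligand median was 0.058, and the ligand median minus the receptor median was -0.012. The offset of normexp pulls dim probes toward 0 by construction. With only probes of a signal of at least 50, chosen after seeing the data, 38 members were left and 3 were at least 1.5-fold higher (*Epha2*, *Sema3f* and *Sema7a*). Without a filter on dim probes 6 were at least 1.5-fold lower, namely *Sema4b*, *Sema3c*, *Epha7*, *Epha8*, *Epha10* and *Sema4f*. Of these, *Epha8*, *Epha10* and *Sema4f* were not well above background on either array. *Epha2* and *Sema4b* were past 1.5-fold under all 12 alternatives, and 31 of the 45 members kept their sign under all in which they were measured, 20 above 0 and 11 below. Part of the alternatives cannot change a given gene. Those on dim or very bright probes and on averaging leave a gene with 1 bright probe, such as *Epha2* or *Sema4b*, as it is. Counts past 1.5-fold among all genes were 579 in the higher and 498 in the lower direction, 388 and 782 without scaling, 94 and 33 with normexp, 1215 and 1737 with no filter on dim probes and 208 and 93 with a signal of at least 50.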

Other observations

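Other guidance families, listed for comparison, are the netrins, Slits and repulsive guidance molecules with their receptors. Of 25 such genes, 18 were measured on both arrays, with a median log2 fold change of -0.02, 8 above 0 and 10 below. *Flrt1*, a membrane protein that can bind Unc5 receptors, was at 0.60 ± 0.18, with 28.9 in the *Dullard+/-* and 40.5 in the *Dullard-/-* embryo on the 1 of its 3 probes that was measured. *Robo3*, a Slit receptor family member, was at -0.61 ± 0.29, with 17.5 and 10.6. No other gene of the list was past 1.5-fold.

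Of 58 intracellular partners of Eph receptors, ephrins and plexins, 55 were measured, with a median log2 fold change of 0.01. *Sh2d3c*, an adaptor that binds Eph receptors, gave 9.96 and 21.8 and was at 1.24 ± 0.27. The first of these signals is near the lowest detected one of the *Dullard+/-* array (6.20). *Fes*, a tyrosine kinase that acts downstream of semaphorin receptors, was at -1.14 ± 0.20. It gave 20.7 and 7.80 on one probe and 22.6 and 10.6 on the other, so both were lower in the *Dullard-/-* embryo. There both signals are near the lowest detected one of the array (7.27). *Abl1*, a kinase of the cytoskeleton, was at 0.70 ± 0.13 on average, but its probes differed, with 11.4 and 25.6 on the dimmer (1.28) and 286 and 287 on the brighter (0.12).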
